A study of Mus musculus with 48 samples.

Results

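The 31 genes described here are transcripts enriched in microglia and were taken from a list of names, and all 31 were found among the 23284 genes of the deposited table. Polyadenylated RNA came from punches of the preoptic area of the hypothalamus of female mice whose neurons for gonadotropin-releasing hormone (GnRH) carried, through a GnRH-driven Cre recombinase, the ribosomal protein L10a with a green fluorescent protein (GFP) tag. Cre came from homozygous fathers and the floxed-stop L10a-GFP allele from homozygous mothers, so every mouse of the 8 main groups carried both. Each group was a fraction, an age and a prenatal treatment. The fraction was either the immunoprecipitate (IP), in which RNA on tagged ribosomes is enriched, or the supernatant left after it, which holds RNA of the other cells of the tissue. Mice were adult (diestrous) or young (prepubertal), and had been exposed before birth to the androgen dihydrotestosterone (DHT) or to vehicle. In each fraction there were 6 libraries of adult DHT mice, 5 of adult vehicle mice, 6 of young DHT mice and 6 of young vehicle mice. A further IP library and a supernatant library came from a young mouse or mice with the floxed L10a-GFP allele and no Cre, labelled as negative controls. Replicates are labelled biological, but not as single animals or as pools of several, and the p-values below therefore reflect the variation among these samples, whatever its source.

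Microglia are the resident macrophages of the brain parenchyma. They depend on the colony-stimulating factor receptor Csf1r, sense nucleotides through P2ry12 and fractalkine from neurons through Cx3cr1, and make most of the brain's C1q, the recognition protein of the classical complement pathway, which tags synapses and debris for removal. The 31 genes are not known as transcripts of GnRH neurons. The members cover surface receptors (P2ry12, P2ry13, Cx3cr1, Csf1r, Gpr34, Trem2, Csf3r, Cd14, Siglech, Fcrls, Fcgr3), their signalling partners (Tyrobp, Fcer1g, Inpp5d), adhesion and membrane proteins (Itgam, Selplg, Ptprc, Cd53, Tmem119), C1q (C1qa, C1qb, C1qc), lysosomal and effector proteins (Ctss, Cd68, Laptm5, Mpeg1), a transcription factor (Irf8) and others (Aif1, Ly86, Olfml3, Slc2a5).

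Several members lie next to each other in the genome (coordinates of GENCODE M21 genes on mm10). C1qb (chromosome 4, 136880129 to 136886187, minus strand), C1qc (136889804 to 136893065, minus strand) and C1qa (136895917 to 136898803, minus strand) are separated by 3.6 and 2.9 kb. P2ry13 and P2ry12 lie 5.4 kb apart on chromosome 3, Tmem119 and Selplg 18 kb apart on chromosome 5, and Fcgr3 and Fcer1g 164.6 kb apart on chromosome 1. The library kit does not mark strand, so reads in shared exons cannot be told apart: 873 bp of Csf1r exons (15.1%) overlap Hmgxb3, 78 bp of Cx3cr1 (1.7%) overlap Gm33858 and 9 bp of P2ry12 (0.4%) overlap Med12l. For Itgam, 3450 bp (68.7% of its exon length) are shared with Gm49368, a same-strand model that has no row in the table, so the assignment of reads to Itgam is uncertain.

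The promoters of 24 of the 31 members were in the RefSeq table used here (GRCm38.p6). PU.1, the ETS-family factor on which macrophages depend, binds a GAGGAA core. GAGGAA, searched on both strands (TTCCTC on the other strand) in the 250 bases upstream of the start, was present for 15 of these 24 members (62.5%), against 25.9% of the 27025 genes with a promoter in the table. The longer form GAGGAAGT, every match of which also contains GAGGAA, was present for C1qc and Inpp5d, 8.3% of members, against 2.8% of genes. A match describes letters in this window and does not show binding. The 250 bases upstream of the start are given for the highest member (C1qb) and for 3 members whose supernatant level differed between ages (Ctss, Itgam and Mpeg1), 5′ to 3′ on the gene's strand, with GAGGAA or TTCCTC in capitals. The C1qb window (chr4:136886201-136886450, minus strand) holds a match 30 bases before the start, that of Ctss (chr3:95526536-95526785, plus strand) 1 at 164 bases, that of Itgam (chr7:128062390-128062639, plus strand) 2, at 84 and 15 bases, and that of Mpeg1 (chr19:12460520-12460769, plus strand) none.
C1qb: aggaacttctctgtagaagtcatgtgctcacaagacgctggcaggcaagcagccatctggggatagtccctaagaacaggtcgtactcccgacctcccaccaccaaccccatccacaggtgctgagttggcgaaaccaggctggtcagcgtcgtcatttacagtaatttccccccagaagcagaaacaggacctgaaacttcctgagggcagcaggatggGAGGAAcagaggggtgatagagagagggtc
Ctss: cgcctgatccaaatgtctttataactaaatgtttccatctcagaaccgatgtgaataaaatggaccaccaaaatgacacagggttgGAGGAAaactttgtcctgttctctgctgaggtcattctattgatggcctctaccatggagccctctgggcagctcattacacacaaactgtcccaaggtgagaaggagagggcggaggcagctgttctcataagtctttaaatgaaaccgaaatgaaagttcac
Itgam: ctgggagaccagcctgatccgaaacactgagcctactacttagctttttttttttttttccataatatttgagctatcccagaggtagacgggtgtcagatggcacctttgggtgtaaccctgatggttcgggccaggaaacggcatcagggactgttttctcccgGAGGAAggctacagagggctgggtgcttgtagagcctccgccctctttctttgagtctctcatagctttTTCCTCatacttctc
Mpeg1: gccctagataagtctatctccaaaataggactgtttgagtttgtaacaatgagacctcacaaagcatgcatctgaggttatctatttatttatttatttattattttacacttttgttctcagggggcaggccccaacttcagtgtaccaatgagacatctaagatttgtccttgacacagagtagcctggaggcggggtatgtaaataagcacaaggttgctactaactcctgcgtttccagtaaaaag

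Levels are given in CPM, the count of a gene scaled to the library's total count. These totals lay between 28672556 and 47054029 in IP (23 libraries) and between 28136000 and 55479451 in supernatant (23 libraries). Gnrh1 checked the fractions: it averaged 4982 ± 3826 CPM in IP and 34.6 ± 9.39 CPM in supernatant (SD, n = 23 libraries each), and every IP library lay above every supernatant library. The members were detected at a low level: 30 of the 31 were above 0 in every supernatant library and Ptprc (CD45, a pan-leukocyte phosphatase) was at 0 in 2. Detection alone does not say which cells made these transcripts. Summed over the 31 genes, the supernatant level ran from 86.3 to 199 CPM. Genes of monocytes and neutrophils, the blood cells nearest to microglia, summed to between 0.222 and 1.6 CPM over 9 genes in the supernatant of the 8 main groups, with Camp at 0 in all adult vehicle and Retnlg at 0 in all adult DHT libraries. Border macrophage genes summed to between 4.07 and 23.9 CPM over 10 genes there.

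Within the supernatant, C1qb had the highest level per kilobase of exon, with a median of 12.1 CPM per kb over 23 libraries. Cathepsin S (Ctss, a lysosomal protease) at 5.74, C1qc at 5.39, Tyrobp (the adaptor of Trem2) at 5.35 and C1qa at 5.31 CPM per kb came next. At the low end stood Itgam (CD11b, part of complement receptor 3) at 0.224, Mpeg1 (perforin-2, a pore-forming protein of macrophages) at 0.0797 and Ptprc at 0.0189 CPM per kb. None of the 30 pairs of neighbours in this order had ranges that did not overlap. In IP, C1qb was also highest, with a median of 8.29 CPM per kb, followed by Tyrobp at 4.41, C1qa at 4.13 and C1qc at 4.04 CPM per kb.

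The members were far less even in IP than in supernatant. Of 713 values in each fraction, 68 (9.54%) were 0 in IP and 2 (0.281%) in supernatant, at similar library totals. Zeros were more frequent in IP over the whole table too. There 6681 to 8623 genes were at 0 in an IP library, against 5232 to 5853 in a supernatant library. The coefficients of variation below were not set against those of all genes. Over groups, the median coefficient of variation of a member was 73.8% in IP and 29.7% in supernatant. The most even member was C1qb in IP (34.5%) and Slc2a5, a fructose transporter, in supernatant (17.3%), and the least even was Ptprc in both (245% and 69.3%). Tmem119 shows the IP spread: in adult DHT mice it ran from 0.0698 to 11 CPM in IP, against 5.1 to 12.8 CPM in supernatant.

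**Figure D1:**
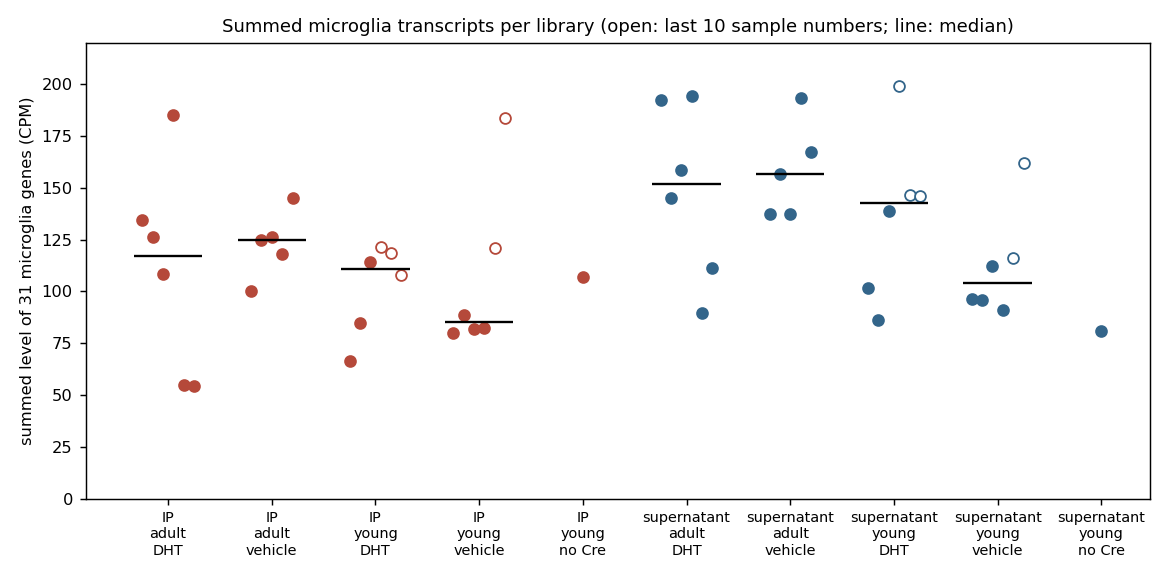
Summed level of the 31 microglia genes in each library (CPM), by fraction, age and prenatal treatment, with IP left of supernatant; lines mark group medians and open points the libraries with the last 10 sample numbers. Young vehicle supernatant has the lowest median of the 4 supernatant groups (104 CPM), and adult DHT replicates 5 and 6 are the lowest of their group in both fractions.

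The summed level did not separate the groups. In IP its median was 117 CPM in adult DHT, 125 in adult vehicle, 111 in young DHT and 85.5 in young vehicle mice. In supernatant it was 152 CPM in adult DHT, 156 in adult vehicle, 143 in young DHT and 104 in young vehicle mice. The plot of summed levels shows that ranges overlapped between every pair of treatments and of ages within a fraction. In bulk RNA, fewer microglia and less RNA per microglial cell cannot be told apart, here and in all comparisons below.

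Sample numbers in the labels fall into a run of 38 and a last run of 10, and the last 10 libraries are all from young mice (DHT replicates 4 to 6 and vehicle replicates 5 and 6 of each fraction). These libraries were high in microglia transcripts within their own groups. In supernatant of young vehicle mice they averaged 139 CPM summed, against 98.8 CPM in the other libraries of the group, and 28 of 31 members were higher in them, against 51.3% of all genes tested. In supernatant of young DHT mice they averaged 164 CPM, against 109 CPM, and 29 of 31 members were higher, against 54.3% of genes. In IP the figures were 25 of 31 members in young vehicle mice (43.2% of genes) and 23 of 31 in young DHT mice (42.3% of genes). Activated microglia genes moved the same way in all 4 young groups, 1.32 to 1.90 times as high in the last 10. Other homeostatic microglia genes did so by 1.13 to 1.44 times, red blood cell genes by 1.32 to 2.26 times and astrocyte genes by 1.03 to 1.31 times. Border macrophage genes went both ways, from 0.56 to 1.49 times. In young vehicle supernatant the 16 activated genes summed to 514 CPM on average, and the 31 members to 112 CPM. The part of other cells in the members' levels and in these list sums was not tested. The labels do not say what the run of numbers stands for. Since no adult library falls in the last 10, age comparisons were also made without them.

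The first comparison set IP against supernatant, which asks how far microglial RNA was depleted when GnRH neuron ribosomes were captured. Averaged over the 4 conditions, 6 of the 31 members were lower in IP and none was higher (edgeR quasi-likelihood test, Benjamini-Hochberg adjusted p under 0.05). The members lower were Cx3cr1, Ptprc, Laptm5, Selplg, C1qc and C1qb. Of all 16660 genes tested, 21.7% were lower and 24.4% higher, so the members' share of lower calls, 6 of 31, was close to the background. The median member stood at a log2 fold change of -0.30, and that of all genes tested at -0.003.

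Cx3cr1, the receptor for neuronal fractalkine, gave the smallest adjusted p. It ran from 0.12 to 11.9 CPM in the 23 IP libraries (median 0.696) and from 2.2 to 7.49 CPM in the 23 supernatant libraries (median 5.13). The groups overlapped, with 15 IP libraries below the lowest supernatant library and 1 above the highest. The fitted level was 2.58-fold lower in IP, or -1.37 ± 0.36 on the log2 scale (SE; adjusted p = 0.00166 by edgeR).

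C1qb and C1qc, 2 of the 3 chains of C1q, differed less but more evenly. C1qb ran from 3.34 to 22.8 CPM in IP (median 9.02) and from 6.61 to 23.5 CPM in supernatant (median 13.1), a 1.33-fold lower level in IP (log2 -0.41 ± 0.15, edgeR adjusted p = 0.0252). C1qc ran from 1.99 to 15.6 CPM in IP (median 7.8) and from 5.64 to 17.3 CPM in supernatant (median 10.4), 1.40-fold lower in IP (log2 -0.48 ± 0.17, edgeR adjusted p = 0.0178). The fractions overlapped for both, with 4 and 6 IP libraries below every supernatant library. The third chain, C1qa, averaged 4.89 ± 3.21 CPM in IP and 5.89 ± 1.98 CPM in supernatant (SD, n = 23 each), a log2 difference of -0.24 with a 95% interval of -0.63 to 0.16.

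Selplg, the P-selectin ligand PSGL-1, ran from 0.163 to 12.9 CPM in IP (median 4.82) and from 4.42 to 13.2 CPM in supernatant (median 8.89), 1.65-fold lower in IP (log2 -0.72 ± 0.28, edgeR adjusted p = 0.0334). Laptm5, a lysosomal membrane protein of blood-lineage cells, ran from 0.0465 to 12.9 CPM in IP (median 3.32) and from 3.91 to 12.1 CPM in supernatant (median 8.61). Its level was 1.88-fold lower in IP (log2 -0.91 ± 0.38, edgeR adjusted p = 0.0441), a call lost when any of 18 of the 46 libraries was left out. For both genes the low end of IP reached far below supernatant while the high ends met: 11 IP libraries for Selplg and 13 for Laptm5 lay below every supernatant library.

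Ptprc was at 0 in 18 of the 23 IP libraries. It averaged 0.192 ± 0.581 CPM in IP and 0.359 ± 0.297 CPM in supernatant (SD, n = 23 each), and the 5 IP libraries above 0 held 0.0249, 0.0253, 0.497, 1.4 and 2.46 CPM. Its fitted log2 change of -2.11 (edgeR adjusted p = 0.0292) rests in part on the adult vehicle group, where IP held no count at all. With that group at the bound a count of 0 allows, the average is -1.55, and the members' median stays at -0.30. Single libraries with counts moved it too: the log2 change was -3.68 without IP adult DHT replicate 2, -3.35 without IP young vehicle replicate 6 and -3.34 without IP young DHT replicate 1.

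Among the 25 members that did not pass, fitted log2 differences ran from -0.98 for Mpeg1 to 0.51 for Trem2, the lipid receptor that works through Tyrobp, and 10 of the 31 members had a positive one, against 49.8% of all genes. A fitted value averages log2 changes over the 4 conditions, so a single condition can carry it. For Mpeg1 the adult vehicle value was -5.22, with 2 counts in IP. In each other condition its mean was higher in IP than in supernatant and its median lower. The means were 0.245 and 0.159 CPM in young vehicle, 0.448 and 0.423 in young DHT and 1.05 and 0.669 in adult DHT mice. Over all libraries Mpeg1 averaged 0.458 CPM in IP and 0.442 CPM in supernatant. Tmem119, a membrane protein used to mark microglia, averaged 5.75 ± 3.93 CPM in IP and 8.34 ± 2.43 CPM in supernatant, and P2ry12 averaged 6.88 ± 4.4 CPM in IP and 6.66 ± 2.35 CPM in supernatant (SD, n = 23 each). For Tmem119 the 95% interval of the log2 difference ran from -1.13 to 0.13 and for P2ry12 from -0.47 to 0.69. The count of members depended on the test: limma-voom with sample weights called 19 members lower (60% of all genes called in either direction), and edgeR without the last 10 sample numbers called C1qb, Cx3cr1 and Ptprc (40.2% of genes). A block for equal replicate numbers raised the count too (56.4% of genes called), as given in the closing section.

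**Figure D2:**
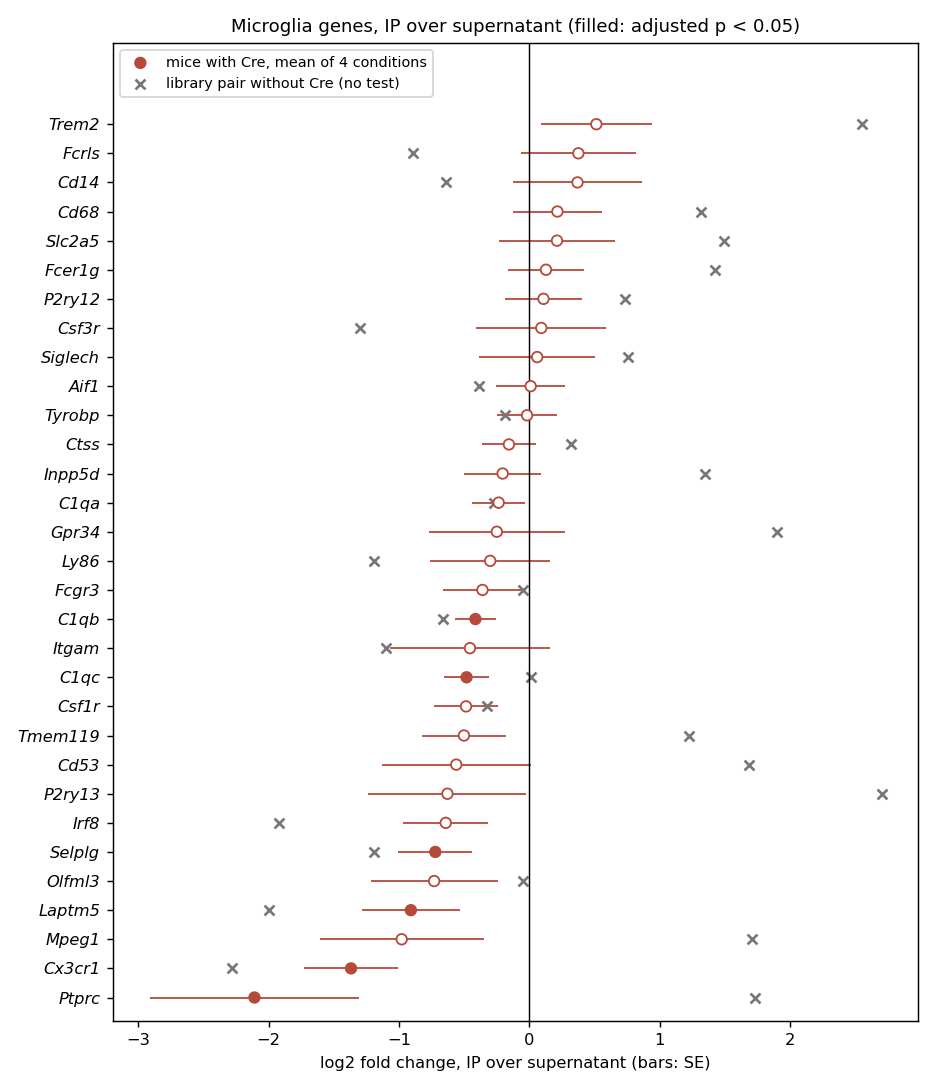
Log2 fold change of IP over supernatant for each microglia gene, with mice with Cre as circles (mean of 4 conditions, bars SE, filled where the edgeR adjusted p is under 0.05) and the library pair without Cre as crosses (no test). Filled circles lie left of 0 for 6 genes, while crosses spread on both sides, at or beyond a 2-fold difference to the right for 11 genes and to the left for 7 (plain ratios of CPM).

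Within single conditions few members passed. In young vehicle mice 1 member was lower in IP, Cx3cr1, against 10.5% of all genes: it ran from 0.12 to 1.92 CPM in IP (median 0.426) and from 2.76 to 5.5 CPM in supernatant (median 3.68), so the fractions did not overlap, as held for 8.24% of genes in that direction. Its log2 change there was -2.21 ± 0.73 (edgeR adjusted p = 0.0234), and the call was lost without IP replicate 2, 3 or 5, each in turn, and without the last 10 sample numbers. In adult vehicle mice 2 members were lower, Ptprc and Mpeg1, against 11.2% of genes. Ptprc had 0 counts in the 5 IP libraries and 85 in the 5 supernatant libraries (0.388, 0.239, 0.346, 0.526 and 0.324 CPM), at least 23.8-fold lower in IP with a floor of 3 counts over the group. Mpeg1 had 2 counts in IP and 123 in supernatant, a ratio of 0.0194 with a 95% exact interval of 0.00232 to 0.0714 that covers counting error only. For these 2 genes and for Itgam and Selplg every adult vehicle IP library lay below every supernatant library, as held for 11.9% of genes. Neither Ptprc nor Mpeg1 has a called value when genes need 1 CPM in every library of a group, since they then leave the table.

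In young DHT and in adult DHT mice edgeR called 0 members (20% and 21.5% of all genes called). At an unadjusted p under 0.05 it gave 2 and 1 members, against 30.2% and 32.0% of genes, DESeq2 called 0 in each, and limma-voom called Cd53 and Cx3cr1 in young DHT mice (29.7% of genes) and Ly86 in adult DHT mice (14.6%). With a block for equal replicate numbers, edgeR did call members in adult DHT mice (25% of genes), as given in the closing section. The labels do not say that these numbers pair samples. The median log2 difference of the members was -0.29 in young DHT and -0.44 in adult DHT mice, and 0.07 in young vehicle and -0.21 in adult vehicle mice.

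The pair of libraries without Cre shows what the capture held when no ribosome was tagged. The 31 members summed to 107 CPM in its IP and 80.7 CPM in its supernatant, and its IP thus lay within the range of the IP libraries of mice with Cre (54.3 to 185 CPM). Its supernatant lay below every supernatant library of mice with Cre (lowest 86.3 CPM), so the ratios here divide by a low summed level. With 0.1 CPM added to each level, 11 members were at least 2-fold higher in the untagged IP and 6 at least 2-fold lower, against 11.9% and 15.5% of the 16660 genes, and the median log2 ratio was -0.04. As plain ratios of CPM, 11 were higher and 7 lower, Itgam (0.467) being the 1 added. P2ry13, an ADP receptor, stood at 7.36 CPM in IP (95% Poisson interval 6.46 to 8.36) and 1.13 CPM in supernatant (0.813 to 1.52), 6.53 times as high in IP. Inpp5d, the phosphatase SHIP1 that dampens receptor signalling, stood at 11.1 CPM in IP (9.97 to 12.3) and 4.35 CPM in supernatant (3.71 to 5.07). Cx3cr1 went the other way, with 0.524 CPM in IP (0.305 to 0.838) and 2.55 CPM in supernatant (2.06 to 3.12). Of the other members called lower in IP of mice with Cre, Laptm5, Selplg and C1qb were also lower in this IP. They stood at 0.955, 2.00 and 3.79 CPM in IP and 3.81, 4.56 and 5.99 CPM in supernatant. C1qc was level (5.17 and 5.13 CPM), and Ptprc was higher in IP (0.893 and 0.268 CPM). With a single library in each fraction there is no replicate check, and the intervals cover counting error only. Gnrh1 had 61.6 CPM in this IP and 38.2 CPM in its supernatant.

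The second comparison set adult against young mice in supernatant. In vehicle mice 4 of the 31 members were higher in adults, Ctss, Mpeg1, Selplg and Tmem119, and none was lower (edgeR, adjusted p under 0.05). Of all 16286 genes tested, 10.1% were higher and 10.2% lower, so the members' share of higher calls, 4 of 31, was near the background. The fitted change was positive for 29 of 31 members, against 51.4% of genes, with a median log2 change of 0.55 for the members and 0.01 for all genes. In DHT mice 1 member was higher in adults, Itgam, against 9.47% of genes, and none was lower, against 10.5%. The median over the members was 0.14, with 22 of 31 positive, against 51.6% of genes.

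Ctss had 8.74, 11.5, 9.58, 11.8 and 13.1 CPM in adult vehicle mice, against 2.7 CPM at the lowest, 3.81 at the median and 10.3 at the highest in 6 young vehicle mice. Replicate 6 of the young group alone reached into the adult range, and the next young library had 5.37 CPM. The log2 change was 1.14 ± 0.27 (edgeR adjusted p = 0.00405), a 2.20-fold higher level in adults. In DHT mice Ctss ran from 7.24 to 15.9 CPM in adults (median 10.5) and from 4.08 to 8.96 CPM in young mice (median 7.33), with a log2 change of 0.68 ± 0.26 (edgeR adjusted p = 0.062).

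Tmem119 had 9.37, 12.5, 8.37, 11.9 and 8.87 CPM in adult vehicle mice, against 4.68 to 7.97 CPM in young vehicle mice (median 6.34). It was the member for which these 2 groups did not overlap, as 5.43% of all genes did in the same direction. The log2 change was 0.67 ± 0.20 (edgeR adjusted p = 0.0185), 1.59-fold, and it lost the call without adult vehicle replicate 2. In DHT mice it ran from 5.1 to 12.8 CPM in adults and from 5.52 to 9.64 CPM in young mice, with a log2 change of 0.26 and a 95% interval of -0.12 to 0.63.

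Selplg, 18 kb from Tmem119, had 10.5, 10, 9.8, 11.5 and 10.7 CPM in adult vehicle mice, against 4.42 to 10.5 CPM in young vehicle mice (median 5.75). Apart from young replicate 6, the young libraries were at or below 6.18 CPM, so the overlap came from that library. The log2 change was 0.71 ± 0.20 (edgeR adjusted p = 0.0137), 1.63-fold.

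Mpeg1 was scarce in both ages, with 0.166, 0.787, 0.346, 0.646 and 0.721 CPM in adult vehicle mice, against 0.0901 to 0.25 CPM in young vehicle mice (median 0.16). Of the adult libraries, 4 lay above every young library and 1 within their range. The log2 change was 1.69 ± 0.48 (edgeR adjusted p = 0.0147), 3.23-fold, the largest among the 31 members.

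Itgam, the call of the DHT mice, ran from 0.785 to 2.03 CPM in adult DHT mice (median 1.45) and from 0.349 to 1.21 CPM in young DHT mice (median 0.713), with 5 of 6 adult libraries above every young library. The log2 change was 1.00 ± 0.31 (edgeR adjusted p = 0.0227), and the call was lost without any of adult DHT replicate 2 or 3 or young DHT replicate 2 or 6. In vehicle mice it averaged 1.4 ± 0.373 CPM in adults (SD, n = 5) and 0.881 ± 0.362 CPM in young mice (SD, n = 6), a log2 change of 0.63 with a 95% interval of 0.02 to 1.24 (edgeR adjusted p = 0.163).

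The C1q genes did not pass in either treatment. C1qb had 11.9, 15.7, 11, 19 and 16.5 CPM in adult vehicle mice, against 8.74 to 15.4 CPM in young vehicle mice (median 10.2), and 6.61 to 19.5 CPM in adult DHT mice, against 8.43 to 23.5 CPM in young DHT mice. The log2 change was 0.37 in vehicle mice (95% interval -0.08 to 0.82) and -0.10 in DHT mice (-0.53 to 0.33). At the low end of the list stood Fcrls, a microglial Fc receptor-like protein, with log2 changes of -0.92 in DHT mice (edgeR adjusted p = 0.109) and -0.23 in vehicle mice, and Cd68, a lysosomal glycoprotein of phagocytes, with -0.31 and -0.21.

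**Figure D3:**
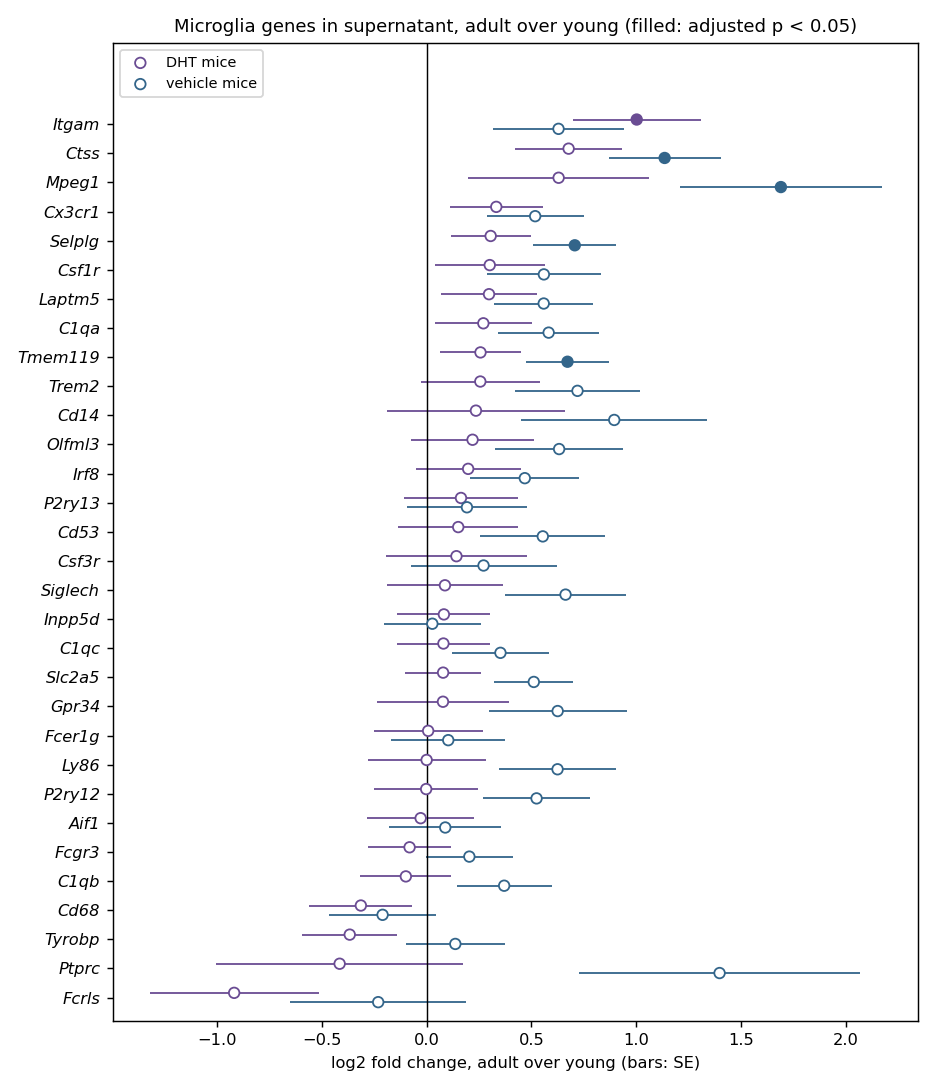
Log2 fold change of adult over young supernatant for each microglia gene, in DHT mice (purple) and vehicle mice (blue), with SE bars and filled circles where the edgeR adjusted p is under 0.05. Vehicle circles lie right of 0 for 29 of 31 genes and DHT circles for 22, and filled ones are Ctss, Mpeg1, Selplg and Tmem119 in vehicle and Itgam in DHT mice.

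The count in vehicle mice depended on the young libraries used. Without the last 10 sample numbers 13 members were higher in adults (23% of all genes called in either direction), and with a term for them 15 members (22.2%), with none lower in either. Leaving out young vehicle replicate 6 alone, which belongs to those 10 and had the highest summed level of its group (162 CPM), gave 12 members. The share of all genes is not given for that fit, so these 12 are not set against a background. The 9 members called without the 10 libraries beside the first 4 were C1qa, Csf1r, Cx3cr1, Laptm5, Ly86, P2ry12, Ptprc, Siglech and Trem2. Limma-voom, which weights libraries, called 10 members (25.6% of genes). In DHT mice the same steps gave 3 members each, Ctss, Itgam and Selplg, against 6.83% of genes without the last 10 and 11.8% with the term. What sets those young libraries apart was not tested.

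Whether the age difference itself differed between treatments was tested as an interaction. EdgeR called 0 members in supernatant (0% of all genes), and at an unadjusted p under 0.05 also 0 (5.45% of genes). DESeq2 and limma-voom called 0 members at an adjusted p under 0.05. The DHT difference minus the vehicle difference had a median of -0.40 on the log2 scale and was positive for 2 of 31 members, against 50.2% of genes. The larger count in vehicle mice is thus not shown to differ from that in DHT mice.

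**Figure D4:**
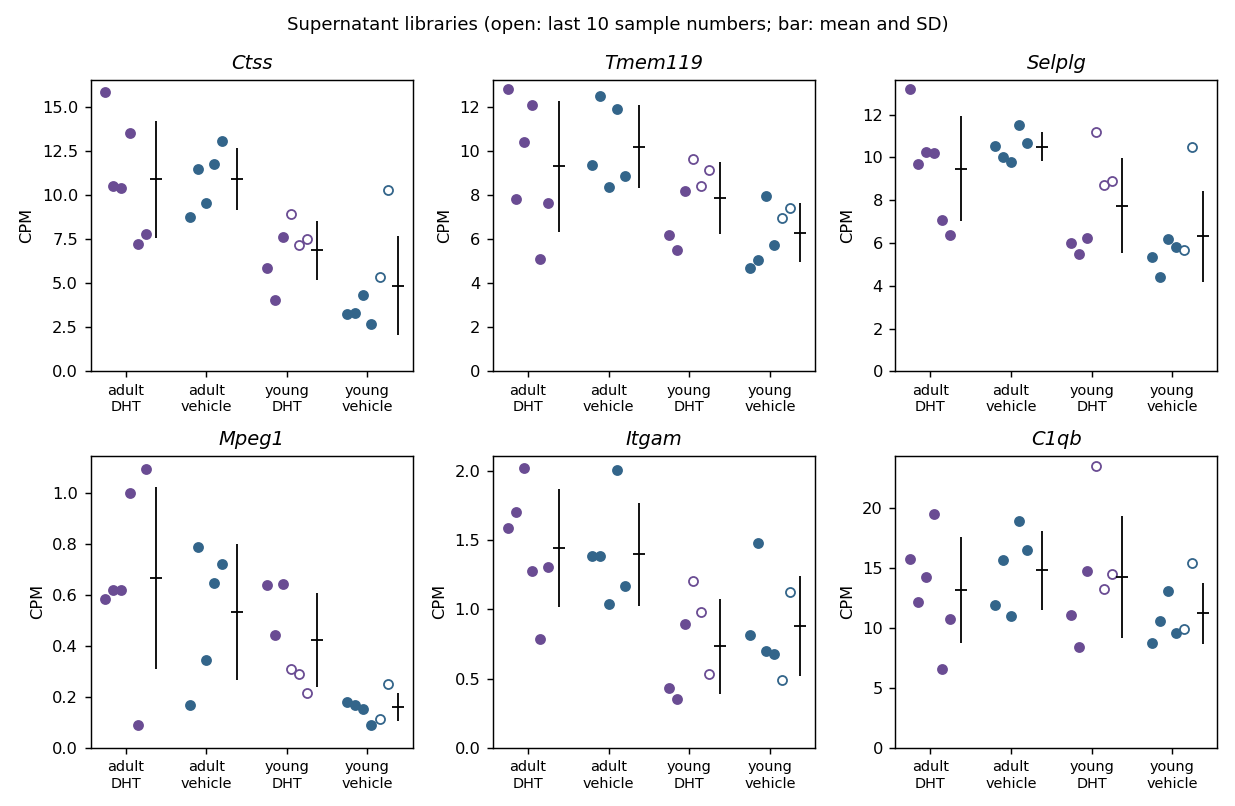
CPM of 6 microglia genes in each supernatant library, by age and prenatal treatment, with the group mean and SD beside the points and open points for the last 10 sample numbers. Tmem119 separates adult vehicle from young vehicle mice, and for Ctss and Selplg a single open young vehicle point reaches the adult range.

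In IP the same age comparison gave no call. EdgeR tested 30 members, Ptprc having been removed by the filter on low counts, and called 0 in DHT mice and 0 in vehicle mice (7.12% and 3.83% of all genes). At an unadjusted p under 0.05 it gave 1 member in each, Ctss in DHT mice (20.4% of genes) and Cx3cr1 in vehicle mice (17.4%), and DESeq2 and limma-voom called 0. Ctss ran from 3.24 to 19.4 CPM in adult DHT IP (median 10.9), against 2.22 to 8.47 CPM in young DHT IP (median 4.46), a log2 change of 1.10 with a 95% interval of 0.07 to 2.13 (edgeR adjusted p = 0.235). In vehicle mice its log2 change was 0.96, with an interval of -0.11 to 2.03. The test of the difference between fractions called 0 members in either treatment (0.882% of genes in DHT and 1.04% in vehicle mice). At an unadjusted p under 0.05 it gave 0 members in DHT mice (11.4% of genes) and 3 in vehicle mice (11.7%), Itgam, Mpeg1 and Ptprc, and DESeq2 and limma-voom called 0. The difference between treatments in this age change, tested within IP, gave 0 members and 0% of genes. At an unadjusted p under 0.05 it gave 0 members (5.39% of genes), and DESeq2 and limma-voom called 0.

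The third comparison set prenatal DHT against vehicle. In supernatant edgeR called 0 members in young and 0 in adult mice, and 0% of all genes in either, as did DESeq2 and limma-voom for the members. At an unadjusted p under 0.05 it gave 3 members in young mice, Ptprc, Mpeg1 and Ly86, against 4.59% of genes, and 0 in adults, against 2.08%. In young mice the median log2 difference was 0.26, with 30 of 31 members positive against 48.1% of genes, and in adults it was -0.09, with 11 of 31 positive against 49.9% of genes.

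Mpeg1 had 0.641, 0.443, 0.644, 0.31, 0.288 and 0.213 CPM in young DHT supernatant, against 0.0901 to 0.25 CPM in young vehicle supernatant, so all but 1 of the DHT libraries lay above every vehicle library. Its log2 difference was 1.39 ± 0.47 (edgeR adjusted p = 0.976). Ptprc had 0.14 to 1.46 CPM in young DHT mice (median 0.385), against 0 to 0.373 CPM in young vehicle mice (median 0.137), a log2 difference of 1.93 ± 0.65 (edgeR adjusted p = 0.976). Both are among the lowest members per kilobase. In adults the log2 difference was 0.33 for Mpeg1, with a 95% interval of -0.54 to 1.20, and 0.12 for Ptprc, with an interval of -1.09 to 1.33.

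For the more abundant members the intervals were narrower. In young supernatant Ctss differed by 0.46 on the log2 scale (95% interval -0.04 to 0.97), C1qb by 0.31 (-0.12 to 0.74), Tmem119 by 0.29 (-0.09 to 0.67) and Cx3cr1 by 0.24 (-0.20 to 0.68). In adult supernatant Ctss differed by 0.00 (-0.51 to 0.52), C1qb by -0.16 (-0.61 to 0.28), Tmem119 by -0.13 (-0.52 to 0.26) and Cx3cr1 by 0.05 (-0.40 to 0.50). In young supernatant the last 10 sample numbers hold 3 of 6 DHT and 2 of 6 vehicle libraries. Whether this bears on the members' difference was not tested. Within each run of numbers, log2 ratios of mean CPM with 0.1 CPM added were taken in place of fitted changes. Within the last 10 the members' median was 0.28 with 27 of 31 positive, and within the other libraries 0.12 with 25 of 31 positive. The share of all genes was not computed for these ratios.

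In IP edgeR called 0 of 30 members for DHT against vehicle at either age (0% of genes in young and 0.00629% in adult mice), as did DESeq2 and limma-voom. At an unadjusted p under 0.05 it gave 0 members in young mice (1.5% of genes) and 1, Mpeg1, in adult mice (8.29%). Mpeg1 had 0, 1.2, 0, 5.13, 0 and 0 CPM in adult DHT IP, against 0, 0.0256, 0.0276, 0 and 0 CPM in adult vehicle IP, so 2 libraries held nearly all its counts. The median log2 difference of the members was -0.07 in young and -0.19 in adult IP. As log2 ratios of mean CPM with 0.1 CPM added, not fitted, the members' median in young mice was -0.50 in the last 10 sample numbers and 0.13 in the others.

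Lists of genes around the microglial ones put these values in context, and list medians are descriptions. Of 12 genes of CSF1R and TGF-beta signalling, on which microglia depend, 5 were lower and 2 higher in IP than in supernatant (edgeR, mean of 4 conditions). The shares over all genes tested were 21.7% lower and 24.4% higher. Smad3, a TGF-beta signal transducer, averaged 6.66 CPM in IP and 14.4 CPM in supernatant (log2 -1.07, edgeR adjusted p = 0.00152), and Il34, the neuronal ligand of Csf1r, 30.4 CPM in IP and 26.5 CPM in supernatant (log2 0.25 ± 0.09). The fractalkine ligand Cx3cl1, made by neurons, averaged 199.5 CPM in IP and 291 CPM in supernatant (log2 -0.49 ± 0.09).

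In adult against young supernatant, Csf1, the other ligand of Csf1r, was higher in both treatments, with 13.7 CPM in adult and 9.20 CPM in young DHT mice and 12.2 CPM in adult and 8.0 CPM in young vehicle mice (edgeR adjusted p = 0.00207 and 0.00238). The TGF-beta receptor Tgfbr1 was higher in adult vehicle mice at 6.32 CPM, against 3.8 CPM in young vehicle mice (log2 0.70 ± 0.21). Csf2ra, a receptor chain for another colony-stimulating factor, was lower in adults of both treatments, with log2 changes of -0.50 in DHT and -0.41 in vehicle mice. No other gene of those 12 passed.

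Of 12 other homeostatic microglia genes, Crybb1, a crystallin known from immature microglia, was lower in adults in both treatments, with 1.97 CPM in adult and 5.92 CPM in young DHT mice (log2 -1.57 ± 0.22) and 2.97 CPM in adult and 5.06 CPM in young vehicle mice (log2 -0.80 ± 0.22). Of 11 activated microglia genes tested, Cd9 was the 1 that passed, lower in adults in DHT (log2 -0.60) and vehicle mice (log2 -0.47); other cells make it too. No antigen presentation gene of 8 passed in either treatment.

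Genes of border macrophages, which sit in the meninges and around vessels, were lower in adults where they passed. Of 8 of their genes tested in supernatant, Cbr2, F13a1 and Pf4 were lower in adult vehicle mice, and the list's median log2 change was -0.79. F13a1, a clotting factor subunit, averaged 1.91 CPM in adult and 5.03 CPM in young vehicle mice, and Cbr2 averaged 1.37 and 3.59 CPM in these groups. In DHT mice Cbr2 was lower, with 1.32 CPM in adults and 4.03 CPM in young mice, and the median was -0.70. Red blood cell genes were lower in adults for 3 of 4 tested in each treatment and oligodendrocyte genes for 9 of 12 in DHT and 10 of 12 in vehicle mice. Over all genes tested, 10.5% were lower in adult DHT and 10.2% in adult vehicle mice. The part of these other cells in the members' values was not tested.

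**Figure D5:**
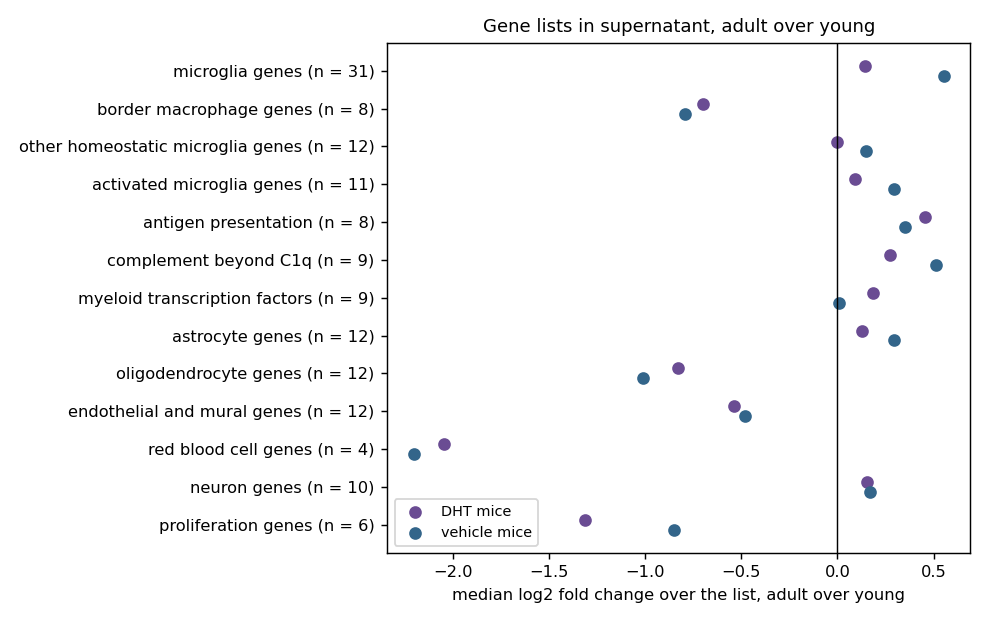
Median log2 fold change of adult over young supernatant for the microglia genes and 12 other gene lists, in DHT mice (purple) and vehicle mice (blue); n is the number of genes tested. Microglia genes stand at 0.14 in DHT and 0.55 in vehicle mice, and border macrophage genes at -0.70 and -0.79.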

How the data were processed

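The authors deposited 1 table of estimated counts for 23284 genes in 48 libraries, of which 98.49% of values are whole; the program and annotation that gave these counts are not given in the sources used here. The submitters' processing notes name the mm10 build, TopHat2 2.0.13 and Bowtie2 2.2.1, HTSeq 0.6.1, DESeq2 1.14.1, Cuffdiff 2.1.1 of Cufflinks, and FastQC 0.11.3, in no stated role. RNA was polyadenylated and the kit, SMARTer v4, does not mark strand, per the labels' protocols.

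Counts were rounded and tested with edgeR 4.0.16 in R 4.3.3 (TMM scaling, robust quasi-likelihood F test, filterByExpr with a minimum count of 10 and a minimum total of 15, Benjamini-Hochberg adjustment over all genes tested, threshold 0.05). One fit took all 46 libraries of mice with Cre (16660 genes), 1 the IP libraries (15890 genes) and 1 the supernatant libraries (16286 genes). The 95% intervals of fold changes are normal intervals from the SE. The scripts were tested on simulated data. CPM is the count over the library total. Levels per kilobase use GENCODE M21 exon lengths. Intervals and floors (3 counts) cover counting error only. No 2 libraries were duplicates. The library pair without Cre entered no fit.

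All members may be named; library values are given for members chosen by role and by size of change among those past the threshold, and of other lists the count and the genes with the smallest adjusted p. The members and lists were chosen with earlier results of these data known. Alternatives were DESeq2 1.42.0, limma-voom 3.58.1 with sample weights, other filters and scalings, fits of the groups compared alone, a replicate block, the last 10 sample numbers as a term or left out, and each library left out in turn. Values of some genes of the other lists are not reported here.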

Additional observations from a re-analysis of the deposited data

Results flagged for a closer look

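Each of the 31 members, and their summed level, was screened in each of the 8 main groups for a library whose gap to its nearest neighbour, as a share of the group's range of log2(CPM + 0.1), passed Dixon's 95% critical value (0.710 for 5 libraries, 0.625 for 6). Of the 256 sets of values tested, 23 had such a library, all of them for single members. Chance gives about 1 in 20 only for normal, independent values. Sets with zeros are not normal, so the count of 23 cannot be set against that rate. Ptprc in adult vehicle IP was at 0 throughout and had no range to test. In young vehicle and adult DHT IP a single library held Ptprc, which gives a ratio of 1 at any level. IP held 17 of the 23.

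In adult DHT IP, replicate 3 was low for Tmem119 (0.0698 CPM, the others 4.23 to 11) and Slc2a5 (0.0349 CPM, the others 1.59 to 4.25), and replicate 5 was low for Inpp5d (0.0638 CPM, the others 4.94 to 10.8). Replicate 2 of that group was high for Ptprc (1.40 CPM, the others at 0) and Csf3r (3.10 CPM, the others up to 0.174). In adult vehicle IP, replicate 2 was low for P2ry12 (0.102 CPM, the others 6.63 to 15.4) and Cd14 (0.0256 CPM, the others 1.96 to 3.23), and replicate 1 was at 0 for Olfml3 (the others 1.98 to 6.17). Siglech was high in replicate 4 of that group (4.73 CPM, the others up to 0.0931) and Itgam in replicate 5 (0.419 CPM, the others up to 0.0553).

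In young DHT IP, replicate 5 was low for C1qb (3.34 CPM, the others 8.62 to 11.2) and high for Csf3r (2.16 CPM, the others 0.161 to 0.405). Replicate 1 was high for Ptprc (2.46 CPM, the others up to 0.0253) and low for Irf8 (0.0268 CPM, the others 1.72 to 4.16). In young vehicle IP, Gpr34 was at 0 in replicate 4 (the others 2.03 to 5.81), Olfml3 was low in replicate 3 (0.0477 CPM, the others 1.58 to 2.56) and Ptprc was high in replicate 6 (0.497 CPM, the others at 0).

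In supernatant, replicate 5 of adult DHT mice was low for Ptprc (0.0302 CPM, the others 0.291 to 0.563) and Mpeg1 (0.0905 CPM, the others 0.583 to 1.10). Replicate 2 of young DHT mice was low for Cd53 (0.512 CPM, the others 1.28 to 2.08) and Cd14 (0.233 CPM, the others 0.985 to 1.95). In adult vehicle mice, P2ry13 was high in replicate 5 (2.51 CPM, the others 1.81 to 1.97) and Aif1 in replicate 4 (4.62 CPM, the others 3.03 to 3.22).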

How the results depend on the processing

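Of the called log2 fold changes, none changed sign under any alternative run, and 103 of 114 values kept their call over the settings. Counts of members called moved more. For IP against supernatant over 4 conditions, 6 members were called, against 19 by limma-voom, 15 with a replicate block (56.4% of all genes called) and 3 without the last 10 sample numbers. In young vehicle mice the count of 1 became 3 by limma-voom (33.9% of genes) and 0 without the last 10 (15.4%). In young DHT mice 0 became 2 by limma-voom (29.7%). In adult vehicle mice 2 became 0 with a 1 CPM filter and 1 with the compared groups alone. In adult DHT mice 0 became 1 by limma-voom (14.6%) and 5 with the block (25% of genes). For adult against young supernatant in vehicle mice, 4 became 15 with a term for the last 10, 10 by limma-voom and 13 without them. In DHT mice 1 became 2 by DESeq2, limma-voom (26.9% of genes), the compared groups alone or the block (25.6%). It became 3 with the term (11.8%) or without the last 10 (6.83%). The causes were not tested. Leaving out each library in turn gave 5 to 8 members for IP against supernatant over 4 conditions, 0 to 2 in young vehicle, 0 to 1 in young DHT, 2 to 3 in adult vehicle and 0 to 2 in adult DHT mice. For age it gave 3 to 12 in vehicle and 0 to 2 in DHT supernatant and 0 to 1 for the difference between fractions in vehicle mice. The other counts stayed at 0. Shares of all genes are not given here for DESeq2, the 1 CPM filter, the compared groups alone or the left-out libraries. Those counts are thus not set against a background. Ranked by CPM without length, 5 of the 10 highest members stayed among them.

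The labels do not say that a replicate number pairs samples. IP and supernatant libraries of the same number correlated at -0.072 to 0.312 in their deviations from group means, over 0.1 in 7 of 23 pairs, with 18 of 23 matching their own number best; between groups of a fraction 5 of 44 pairs exceeded 0.1 and 14 matched best. An IP leaves its own supernatant by design. These matches hint that equal numbers mark such a pair, as does the listing of groups and replicate numbers in the same order in both fractions. The main fits took no pairs. Members near 0.1 CPM, and IP zeros, limit what this depth can show.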

Other observations

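Other lists add to the picture of IP against supernatant (edgeR, mean of 4 conditions). Over all genes tested, 21.7% were lower in IP and 24.4% higher, and several of the counts below are near or under these shares. Of 9 myeloid transcription factors tested, 3 were lower in IP and none higher, with Cebpa at 0.995 CPM in IP and 4.08 CPM in supernatant. Astrocyte genes were lower for 8 of 12, oligodendrocyte genes for 6 of 12, and endothelial and mural genes for 1 of 12. Activated microglia genes were lower for 4 of 11 and higher for 1, Lgals3, and antigen presentation genes were higher for 1 of 8, B2m. Complement genes beyond C1q had 1 higher and 1 lower of 9, fractalkine and purine genes 1 and 1 of 6, other homeostatic microglia genes 2 and 1 of 12, neuron genes 4 and 2 of 10 and proliferation genes 1 and 1 of 6. Border macrophage genes were lower for 2 of 10, red blood cell genes for 1 of 5 and lymphocyte genes for 1 of 3, and 1 of 3 monocyte and neutrophil genes was higher.

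In adult against young supernatant, 1 myeloid factor of 9 was higher in vehicle mice, Bhlhe41, with 12.9 CPM in adult and 8.65 CPM in young mice. Of the purine genes, Nt5e, which makes adenosine from AMP, had 3.56 CPM in adult and 1.97 CPM in young vehicle mice, and P2rx7, an ATP-gated channel, 2.29 and 1.38 CPM in these groups. The complement gene C2 had 3.38 CPM in adult and 1.96 CPM in young vehicle mice. None of these lists had a call in DHT mice. Over all genes tested, 9.47% were higher and 10.5% lower in adult DHT mice, and 10.1% and 10.2% in adult vehicle mice. Astrocyte genes had 1 lower of 12 in DHT and 2 higher in vehicle mice, endothelial and mural genes 3 lower of 12 in each, lymphocyte genes 1 lower of 2 in each and monocyte and neutrophil genes 0 of 2. Neuron genes had 3 higher and 1 lower of 10 in DHT and 3 higher and 2 lower in vehicle mice, and proliferation genes 1 higher and 3 lower of 6 in each. For prenatal DHT against vehicle, no gene of any list was called in either fraction at either age.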
